A study of Drosophila melanogaster with 6 samples.

Results

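The Osiris and Tweedle genes of Drosophila melanogaster were examined in RNA sequencing of muscle-enriched samples from larvae late in the third instar. Members were taken by symbol: 23 genes whose symbol begins with Osi and a digit, and 26 whose symbol begins with Twdl, together 49 of the 17807 genes in the deposited table. Of these, 21 are called detected, 7 of them Osiris and 14 Tweedle, because their average over the 6 libraries was 10 normalized counts or more. A normalized count is a gene's read count divided by 1 scaling factor per library, made by the authors. Over the whole table, 61.6% of genes reached this mean, against 30.4% of the Osiris and 53.8% of the Tweedle members.

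The tested genotype was UAS-dcr2;;Dmef2-Gal4>UAS-tmodRNAi, called tmodRNAi here, with 3 libraries. The control genotype was UAS-dcr2;;Dmef2-Gal4>UAS-mCherryRNAi, called mCherryRNAi, also with 3 libraries. Both genotypes thus carried the Dicer-2 transgene, which strengthens RNA interference, and a Gal4 driver under the Mef2 promoter, which is active in muscle. The hairpin targeted tmod, which encodes the actin-capping protein tropomodulin, in the first, and in the second the gene of the fluorescent protein mCherry, which has no counterpart in the fly genome. Every library pooled tissue of 7 to 10 larvae of about 90 h. The tissue labels read adult, but the growth protocol names larvae.

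Tweedle genes encode secreted proteins of the insect cuticle, and some are built into the chitin-containing layer that larval epidermis lays down. Mutations in some members make larvae and pupae short and stout. Osiris genes encode small proteins with a signal peptide and a shared domain. They are found in insects and are mostly expressed in epithelia that secrete cuticle, such as epidermis, trachea and foregut, at the times when cuticle is made. Both families lie largely in gene clusters, and the main Osiris cluster spans a dosage-sensitive region known as the Triplo-lethal locus.

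Between 83824273 and 110151028 reads were assigned to genes in a library. tmod itself averaged 13569 ± 527 normalized counts in tmodRNAi and 79332 ± 11517 in mCherryRNAi (SD, n = 3 each), so the knockdown was visible in each library. The muscle label held: the 14 muscle markers summed to between 12055900 and 13596000 normalized counts in tmodRNAi and between 2444940 and 7754140 in mCherryRNAi. The samples also held RNA of cells that make cuticle. The 14 epidermis markers summed to 196557 to 218769 in tmodRNAi and 144911 to 213433 in mCherryRNAi, and the 9 trachea markers to 532101 to 561702 in tmodRNAi and 170871 to 457941 in mCherryRNAi, with no marker of either list at 0. In each of these sums mCherryRNAi replicate 1 was the highest control. It stood apart from the other 2 controls in many genes, and counts of calls and the called genes are therefore also given without it. In bulk samples, fewer cells of a type and less RNA per cell cannot be told apart.

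One gene dominated. TwdlX (FBgn0052571, chromosome X from 16731091 to 16732630, plus strand, in the BDGP6.54 annotation of the dm6 assembly) had 17944, 25842 and 28767 normalized counts in tmodRNAi replicates 1 to 3, against 9976, 3426 and 3071 in mCherryRNAi replicates 1 to 3. The 3 tmodRNAi libraries lay above the 3 controls, and mCherryRNAi replicate 1 lay between the other controls and the tmodRNAi libraries. TwdlX supplied 86.6%, 90.9% and 92.8% of the Tweedle total in the tmodRNAi libraries and 80.8%, 64.7% and 64.1% in the controls. Per kilobase of exon, its mean over the libraries was 10862 normalized counts. The second member on that scale, Twdlbeta, had 802, and the median of all tested genes was 548. Of the tested genes with a known length, 4.94% had a higher level per kilobase than TwdlX.

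The remaining detected members were at low to middling levels per kilobase. TwdlU, which the annotation lists as a pseudogene, had 390 and TwdlT 360 normalized counts per kilobase. The other 48 members are annotated as protein-coding. The highest Osiris gene was Osi24, at 174, followed by Osi9 at 91.3, Osi7 at 57.5, Osi14 at 56.6 and Osi17 at 37.2. Osi6 and Osi2, at 14.5 and 10.9, were the lowest detected Osiris genes, and TwdlL, at 9.64, was the lowest detected Tweedle gene. Apart from TwdlX and Twdlbeta, the detected members lay below the median of the tested genes. Twdlbeta lay above it through tmodRNAi, with 1217 normalized counts per kilobase there and 386 in mCherryRNAi, where TwdlT had 479.

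**Figure D1:**
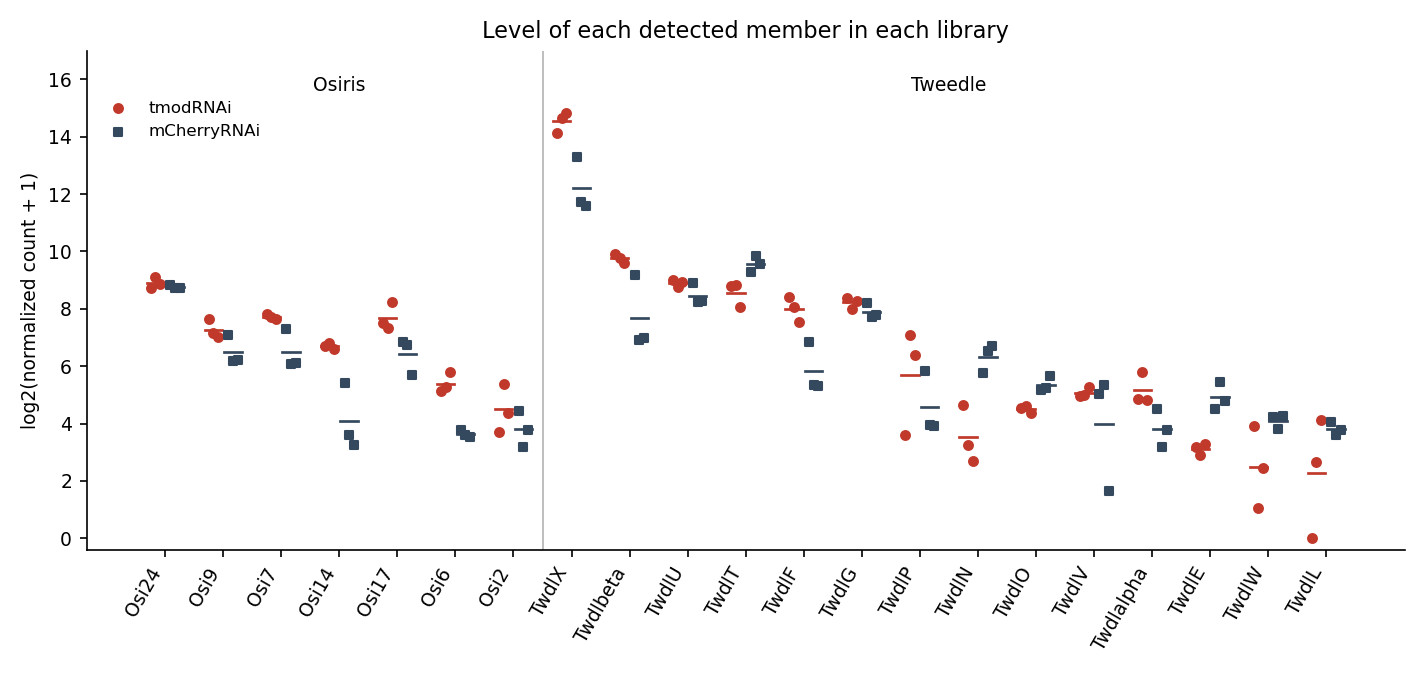
Level of the 21 detected members in each library, as log2(normalized count + 1), with tmodRNAi as circles and mCherryRNAi as squares; short lines are group means of 3 libraries, and members run from high to low level per kilobase within each family. TwdlX lies far above the other members in every library, and the first control square of each gene is replicate 1.

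The detected members were not spread evenly along the clusters. The main Osiris cluster, on chromosome 3R from 6173549 to 6341424, held 20 of the 23 members and all 7 detected ones. Detected and undetected genes were interspersed there, without a regular order. For example, Osi7 and Osi9 averaged 155 and 124 normalized counts, whereas Osi8 between them had 2 reads in 1 library and 0 in the others. Likewise Osi17 averaged 151, and Osi16 beside it had 1 read in 1 library. The members outside that cluster, Osi21, Osi22 and Osi23, were not detected.

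In the Tweedle family the 4 neighbours TwdlU, TwdlF, TwdlG and TwdlV on 3R, within 12.2 kb, were all detected. In the larger 3R cluster, which spans 74.5 kb, 4 of 13 members were detected, namely TwdlP, TwdlL, TwdlO and TwdlN. In the X cluster, which spans 13.3 kb, the neighbours of TwdlX had far fewer reads. TwdlY averaged 4.45 and TwdlZ 3.54 normalized counts, or 4.30 and 5.13 per kilobase, and Twdlalpha averaged 25.4, or 18.8 per kilobase. The single genes TwdlE on 2L, Twdlbeta on 2R and TwdlW on 3R were detected, as was TwdlT, whose neighbour TwdlC was not.

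**Figure D2:**
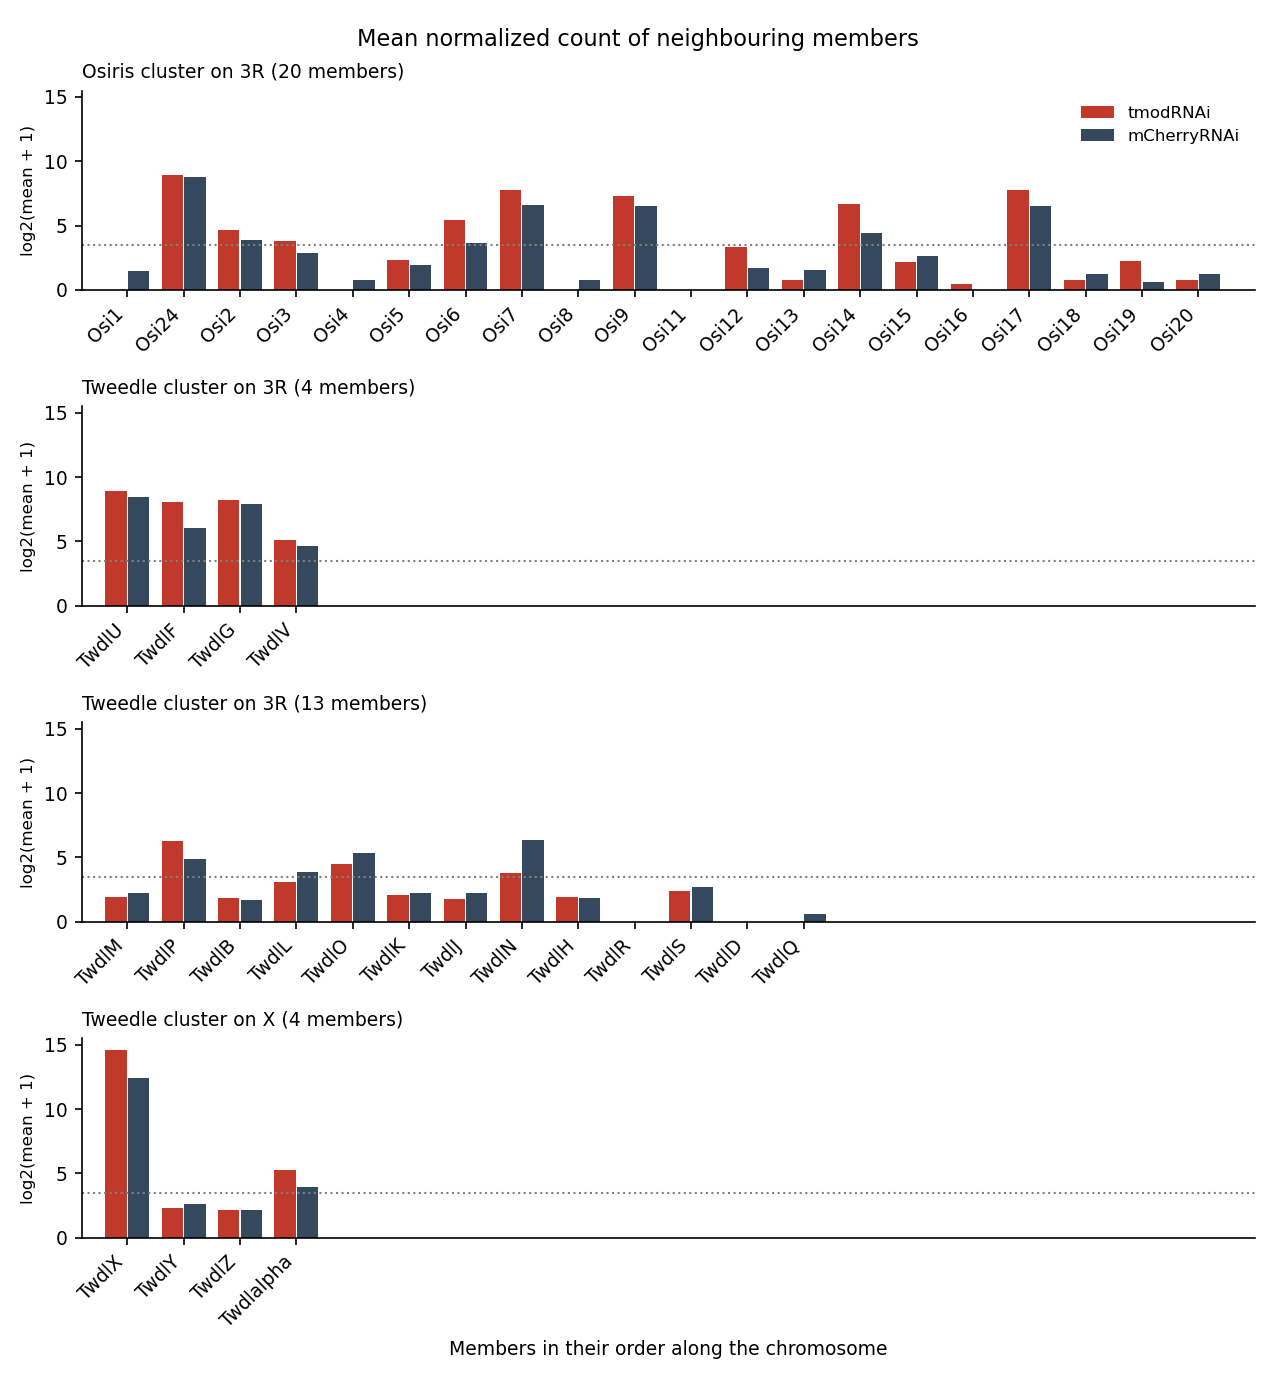
Mean normalized count of each member in the 4 clusters with at least 4 members, as log2(mean + 1), in the order of the genes along the chromosome; left bars are tmodRNAi and right bars mCherryRNAi (n = 3 each), and the dotted line marks a mean of 10. Detected genes stand beside undetected neighbours in the Osiris cluster, and TwdlX stands beside TwdlY and TwdlZ.

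The 28 members below a mean of 10 had few or no reads. The genes Osi11, Osi22, TwdlR and TwdlD, had no read in any library. At 3 reads, a count of 0 allows up to between 2.41 and 3.31 normalized counts, which covers counting error only. The libraries were paired-end, and whether the mates of a pair were counted singly is not given. If they were, this limit is too low. TwdlD is a member whose mutation changes larval body shape. The other 24 had means between 0.178 and 9.58. The one just below the detection limit was Osi3, with 14.1, 4.26 and 19.8 normalized counts in tmodRNAi and 5.88, 1.61 and 11.8 in mCherryRNAi, and the one just above it was TwdlL, with a mean of 10.3. Osi3 and TwdlY were the only undetected members with reads in all 6 libraries. Osi23, known as gore-tex and needed for the pores of olfactory hairs, had 4, 5 and 6 reads in tmodRNAi and 0, 2 and 0 in mCherryRNAi. The gene first named TwdlA is listed as Tb (Tubby), so its symbol is not in the member rule, and its mean was 3.53 normalized counts.

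The genotypes were compared with limma on log2(normalized count + 1), with p-values adjusted by the Benjamini-Hochberg method over the 10969 detected genes and a threshold of 0.05. Log2 fold changes are tmodRNAi minus mCherryRNAi on that scale. With 3 libraries against 3, an exact two-sided permutation test cannot go below p = 0.1, and it gives that value wherever the groups do not overlap. Of all tested genes, 10.9% were called higher and 12.9% lower in tmodRNAi, together 23.8%. Among the 7 detected Osiris genes, 2 were higher and 0 lower. Among the 14 detected Tweedle genes, 2 were higher and 3 lower. These shares, 28.6% and 35.7%, stand beside a background of 23.8% and come from small numbers, so nothing about either family as a whole is read from the counts. The limit for detection also lets in members through the group in which they are high, as it did for TwdlE among the called genes. The median log2 fold change was 1.23 over the detected Osiris genes and 0.38 over the detected Tweedle genes, against 0.02 over all tested genes.

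The called Osiris genes were Osi14 and Osi6. Osi14 (FBgn0040279, 3R from 6299128 to 6300738) had 103, 111 and 95.9 normalized counts in tmodRNAi and 41.2, 11.3 and 8.55 in mCherryRNAi. The groups did not overlap, and control replicate 1 was the highest control. Osi14 rose by a log2 fold change of 2.61 (SE 0.58, limma adjusted p = 0.034). Osi6 (FBgn0027527, 3R from 6234708 to 6237181) had 34.3, 37.3 and 54.0 normalized counts in tmodRNAi and 12.7, 11.3 and 10.7 in mCherryRNAi. Its controls lay close together, replicate 1 included, and Osi6 rose by a log2 fold change of 1.75 (SE 0.31, limma adjusted p = 0.031). These are low counts, of 34 to 49 reads in tmodRNAi and 10 to 14 reads in mCherryRNAi for Osi6.

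Osi7, Osi17 and Osi9 averaged higher in tmodRNAi and missed the threshold. Osi7 had 227, 210 and 198 normalized counts in tmodRNAi and 158, 66.8 and 68.4 in mCherryRNAi (log2 fold change 1.23, 95% interval 0.36 to 2.09, adjusted p = 0.052, limma). Osi17 had 179, 159 and 300 in tmodRNAi and 113, 105 and 51.3 in mCherryRNAi (log2 fold change 1.26, adjusted p = 0.061, limma). Neither gene's groups overlapped. Osi9 had 197, 142 and 128 normalized counts in tmodRNAi and 134, 71.6 and 72.7 in mCherryRNAi, and here control replicate 1 was above tmodRNAi replicate 3 (adjusted p = 0.11, limma).

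Osi24 differed from these in level and in spread. It had 420, 555 and 471 normalized counts in tmodRNAi and 454, 418 and 421 in mCherryRNAi. Its groups overlapped, and its log2 fold change was 0.15 with a 95% interval from -0.17 to 0.47 (adjusted p = 0.40, limma). Osi2 had 12.1, 40.5 and 19.8 normalized counts in tmodRNAi and 20.6, 8.04 and 12.8 in mCherryRNAi, with a log2 fold change of 0.69 (95% interval -0.70 to 2.08, adjusted p = 0.38, limma). tmodRNAi replicate 2 stood well above the other libraries for this gene. Summed over the 23 members, Osiris expression was 1211, 1297 and 1310 normalized counts in tmodRNAi and 947, 716 and 685 in mCherryRNAi.

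Among the Tweedle genes, TwdlX and TwdlF rose. The log2 fold change of TwdlX, whose counts are given above, was 2.33 (SE 0.47, limma adjusted p = 0.032), and the ratio of its group means was 4.40. TwdlF (FBgn0037224, 3R from 4247020 to 4248313), a member whose protein has been seen in larval cuticle, had 336, 268 and 186 normalized counts in tmodRNAi and 113, 39.4 and 38.5 in mCherryRNAi. Its groups did not overlap, and it rose by a log2 fold change of 2.18 (SE 0.47, limma adjusted p = 0.034). Its cluster neighbours TwdlU and TwdlG did not pass. TwdlU had 515, 434 and 484 in tmodRNAi and 473, 299 and 307 in mCherryRNAi (log2 fold change 0.44, 95% interval -0.06 to 0.93, adjusted p = 0.15, limma). TwdlG had 335, 253 and 312 in tmodRNAi and 293, 209 and 219 in mCherryRNAi (log2 fold change 0.32, 95% interval -0.13 to 0.78, adjusted p = 0.23, limma).

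TwdlN, TwdlE and TwdlT were called lower in tmodRNAi. TwdlN (FBgn0039441, 3R from 26631869 to 26632956) had 24.2, 8.52 and 5.51 normalized counts in tmodRNAi and 53.9, 90.9 and 103 in mCherryRNAi. The groups did not overlap, and the log2 fold change was -2.79 (SE 0.57, limma adjusted p = 0.032). TwdlT (FBgn0029170, 3R from 27049220 to 27051004) had 443, 453 and 265 normalized counts in tmodRNAi and 620, 925 and 762 in mCherryRNAi, so each tmodRNAi library was below each control. The log2 fold change of TwdlT was -1.01 (SE 0.26, limma adjusted p = 0.043). TwdlT was the only called Tweedle gene that fell and had over 100 reads in every library.

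TwdlE (FBgn0031957, 2L from 7857957 to 7860839) had 8.08, 6.39 and 8.82 normalized counts in tmodRNAi, or 6 to 8 reads, and 21.6, 42.6 and 26.7 in mCherryRNAi (log2 fold change -1.79, SE 0.39, adjusted p = 0.034, limma). Of its 1346 exon bases, 968 overlap exons of lectin-28C on the opposite strand. lectin-28C averaged 2290 ± 183 normalized counts in tmodRNAi and 6449 ± 1854 in mCherryRNAi, with a log2 fold change of -1.45 (adjusted p = 0.031, limma) and of -1.68 without mCherryRNAi replicate 1. No strand setting is given in the sources used here, so how reads of the shared bases were assigned is not known. TwdlE also averaged 7.76 normalized counts in tmodRNAi and 30.3 in mCherryRNAi, so it reached the detection limit only through the controls. For both reasons the fall of TwdlE is uncertain. No other called member shared exon bases with another gene.

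Twdlbeta was the second most abundant Tweedle gene per kilobase by its mean over all libraries, though not in the controls alone. It had 963, 880 and 772 normalized counts in tmodRNAi and 584, 121 and 124 in mCherryRNAi. The groups did not overlap, but control replicate 1 was nearer to the tmodRNAi libraries than to the other controls. Its log2 fold change was 2.07 (95% interval 0.56 to 3.58) and missed the threshold (limma adjusted p = 0.056). Twdlalpha and TwdlO also had groups that did not overlap and missed the threshold, at a log2 fold change of 1.35 for Twdlalpha and -0.85 for TwdlO (limma adjusted p of 0.082 and 0.061). Twdlalpha shares 72 exon bases with CG32568 on the same strand.

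TwdlP, TwdlV, TwdlW and TwdlL varied widely within a genotype. TwdlP had 11.1, 134 and 83.8 normalized counts in tmodRNAi and 55.9, 14.5 and 13.9 in mCherryRNAi. TwdlV had between 30.3 and 39.4 normalized counts in 5 libraries, as against 2.14 in mCherryRNAi replicate 3. TwdlL had 0, 5.33 and 16.5 in tmodRNAi and 15.7, 11.3 and 12.8 in mCherryRNAi, and TwdlW had 14.1, 1.07 and 4.41 in tmodRNAi and 17.6, 12.9 and 18.2 in mCherryRNAi. Their 95% intervals all included 0, with adjusted p between 0.16 and 0.43 by limma. Without TwdlX, the Tweedle genes summed to 2766, 2590 and 2236 normalized counts in tmodRNAi and 2375, 1873 and 1720 in mCherryRNAi.

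**Figure D3:**
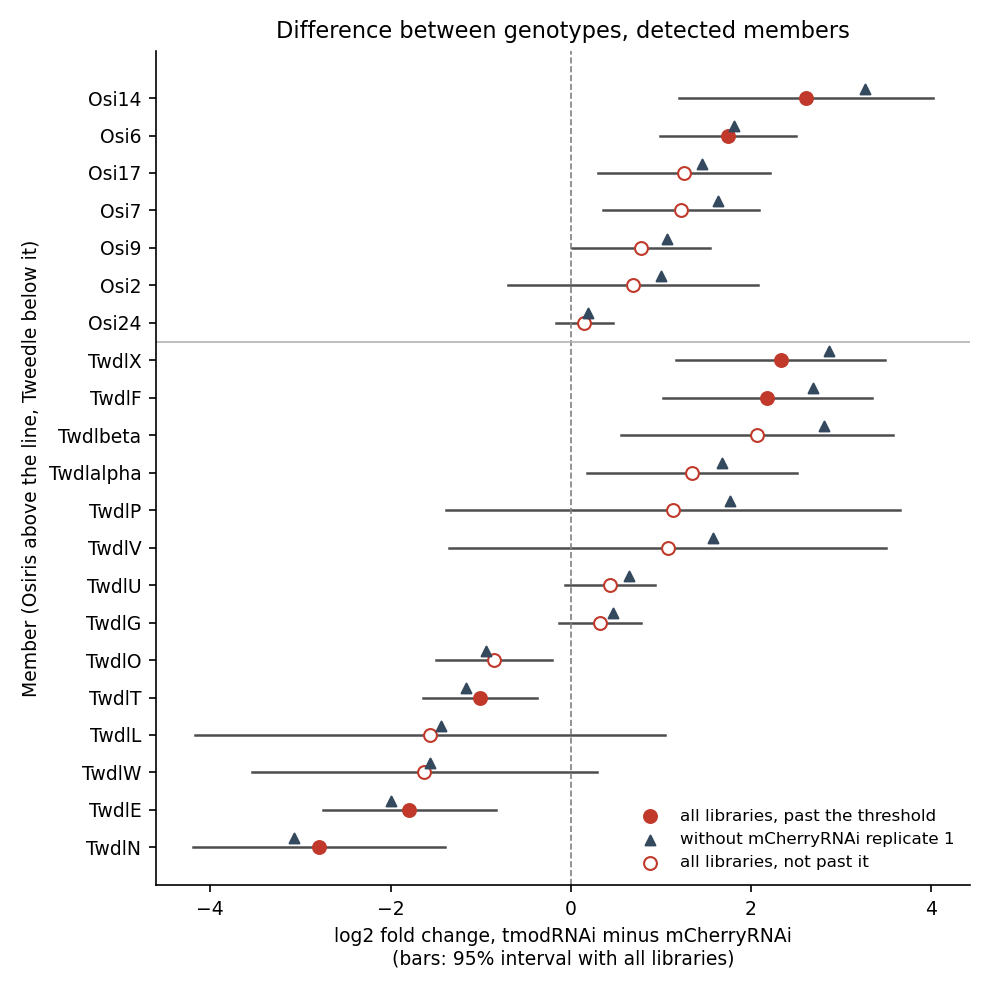
Log2 fold change (tmodRNAi minus mCherryRNAi) of the 21 detected members by limma with 95% intervals (circles, filled where the adjusted p is under 0.05) and without mCherryRNAi replicate 1 (triangles). The estimates of the detected Osiris genes are above 0, but the intervals of Osi24 and Osi2 include 0. Estimates of the detected Tweedle genes run from 2.33 for TwdlX to -2.79 for TwdlN.

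Control replicate 1 touched most of these values. The groups did not overlap for 12 of the 21 detected members, 8 higher and 4 lower in tmodRNAi. Over all tested genes the background was 51.4%, with 25.0% higher and 26.4% lower. In each of these 12, mCherryRNAi replicate 1 lay between the tmodRNAi libraries and the other 2 controls. This held for 77.4% of all tested genes whose groups did not overlap, and for 39.8% of all tested genes. The distance of this library from the mean of the other controls was 2.25 on the log2 scale for Twdlbeta, 1.96 for Osi14, 1.91 for TwdlP, whose groups overlapped, 1.62 for TwdlX and 0.20 for Osi6. Against mCherryRNAi replicate 1 alone, the tmodRNAi mean was still higher by 1.61 for Osi6, 1.25 for TwdlX and 1.18 for TwdlF, and differed by -2.24 for TwdlN. These differences from 1 library have no replicate check.

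Without mCherryRNAi replicate 1, 13 of the 21 detected members passed the threshold, 10 higher and 3 lower, where 47.4% of all tested genes passed, 22.5% higher and 25.0% lower. The 13 included the 7 genes above, together with Osi7, Osi17, Osi9, Twdlbeta, Twdlalpha and TwdlU. The log2 fold change of TwdlX was then 2.87 (adjusted p = 0.00031), that of Osi14 3.27 (adjusted p = 0.00052) and that of Twdlbeta 2.82 (adjusted p = 0.00014), by limma. For Osi6 it was then 1.81 (adjusted p = 0.012, limma), for TwdlF 2.69, for TwdlN -3.07 and for TwdlT -1.16. TwdlE also passed (adjusted p = 0.018, limma). This library was chosen for leaving out after the data were seen. Because it lay between the groups in the separated members, leaving it out had to widen their differences. The adjusted p-values and calls of this fit are therefore a description and add no support. When any one of the other 5 libraries was left out, 0 of the 21 members passed by limma, with between 0 and 59 calls in the whole table. At an unadjusted p under 0.05 these 5 fits gave 3 to 4 of the 7 Osiris and 6 to 10 of the 14 Tweedle genes, against 29.4% to 37.2% of all tested genes.

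**Figure D4:**
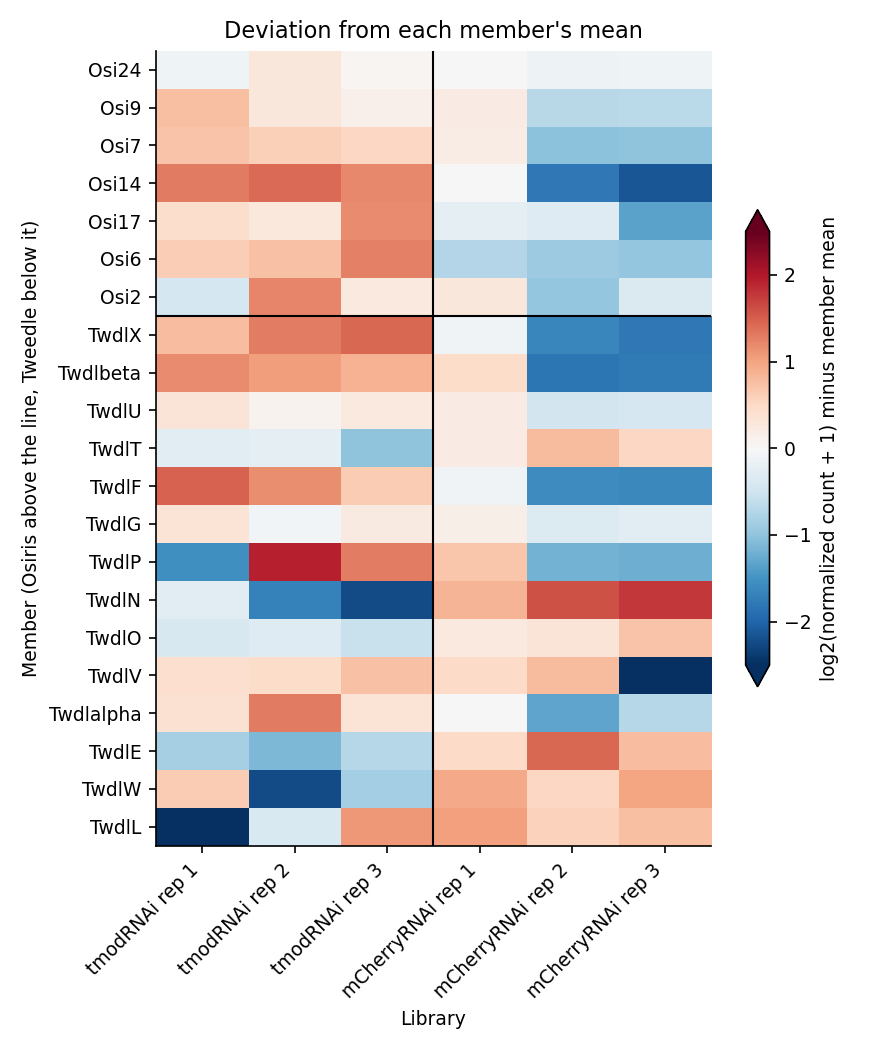
Deviation of log2(normalized count + 1) from each member's own mean over the 6 libraries, with tmodRNAi in the left 3 columns and mCherryRNAi in the right 3; red is above and blue below the member's mean, and colours saturate at 2.5. The mCherryRNAi replicate 1 column is paler than the other control columns for TwdlX, Osi14, TwdlF and Twdlbeta.

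The markers of cuticle-making cells were set beside the members. Most epidermis and trachea markers, among them kkv, knk, Cht2, Gasp and serp, also belong to the chitin and apical matrix genes described below. The marker sums thus also follow genes of cuticle formation, and they are not independent of that list. TwdlX amounted to 8.26%, 11.8% and 14.6% of the summed epidermis markers of the same library in tmodRNAi and to 4.67%, 2.36% and 1.91% in mCherryRNAi. As a share of the summed trachea markers it was 3.23%, 4.60% and 5.41% in tmodRNAi and 2.18%, 2.00% and 1.73% in mCherryRNAi. The groups stayed apart on both scales, but the ratio of means was 3.88 on the first and 2.24 on the second, against 4.40 in normalized counts. Relative to epidermis markers, 8 of the 21 detected members were higher without overlap and 5 lower, against 12.4% and 27.5% of all tested genes. Osi17 was separated in normalized counts and not on this scale, and Osi9 and TwdlW on this scale and not in normalized counts. Relative to trachea markers, 4 were higher without overlap (Osi14, TwdlF, TwdlX and Twdlbeta) and 9 lower, against 3.46% and 57.7% of all tested genes. Osi6, Osi7, Osi17 and Twdlalpha were no longer separated there, and Osi24, TwdlU, TwdlG, TwdlL and TwdlW lay lower in tmodRNAi without overlap. For Osi24, TwdlU and TwdlG the direction thus depended on the scale. The same held for Osi9, Osi2 and TwdlV, whose groups overlapped but whose means were lower in tmodRNAi relative to trachea markers. Their ratios of means were 0.754, 0.798 and 0.578 there, and the group means of Osi7 and Osi17 were nearly equal. Called members had been picked for their separation. These scales were chosen after the data were seen, and the part of these cells in the differences was not tested. The 4 tendon markers, of specialised epidermal cells that anchor muscle, summed to 41271 to 47280 in tmodRNAi and 48381 to 74516 in mCherryRNAi. Fat body markers summed to 306307 to 983907 in tmodRNAi and 167903 to 269095 in mCherryRNAi, and salivary gland markers to 328 to 3544 in tmodRNAi and 120 to 905 in mCherryRNAi.

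Calls among other genes of the cuticle pathway went in both directions, as over all tested genes (10.9% higher and 12.9% lower). Nothing about these lists as a whole is read from the counts below. The first list is of genes for cuticle proteins of the RR type, named for their chitin-binding Rebers and Riddiford motif. They were taken by the beginning of their symbol, such as Cpr or Lcp, and resilin was added. Any other gene whose symbol shares such a beginning would be included. Of 74 tested genes on this list, 15 were higher and 10 lower, or 33.8% called against 23.8% of all tested genes. Their median log2 fold change was 1.16. The RR genes with the smallest adjusted p, Cpr56F, Cpr47Ea and Cpr49Ab, all fell, although more of the list was called higher than lower. Cpr56F averaged 2892 ± 440 normalized counts in tmodRNAi and 8035 ± 1053 in mCherryRNAi (log2 fold change -1.48, adjusted p = 0.028, limma). Cpr47Ea had 4.04, 4.26 and 4.41 in tmodRNAi and 57.8, 85.3 and 57.7 in mCherryRNAi. Cpr49Ab averaged 17.1 ± 7.77 normalized counts in tmodRNAi and 1805 ± 1248 in mCherryRNAi and fell by 6.45 on the log2 scale. Without mCherryRNAi replicate 1, 47 RR genes were higher and 13 lower, where 22.5% of all tested genes were higher and 25.0% lower. The log2 fold changes of Cpr56F, Cpr47Ea and Cpr49Ab were then -1.59, -3.77 and -7.12.

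Of 33 tested genes for chitin and the apical matrix, 2 were higher and 5 lower, or 21.2% called against 23.8% of all tested genes, with a median log2 fold change of 0.65. Without mCherryRNAi replicate 1 the balance of calls turned, to 18 higher and 6 lower, with a median of 0.94. In that fit 22.5% of all tested genes were higher and 25.0% lower. The 3 genes with the smallest adjusted p all fell. The chitinase gene Cht5 averaged 6531 ± 1551 normalized counts in tmodRNAi and 19435 ± 6589 in mCherryRNAi (log2 fold change -1.54, adjusted p = 0.031, limma). Cht2, another chitinase gene, and snsl, needed for the outermost cuticle layer, fell by 0.79 and by 2.05 on the log2 scale (limma adjusted p of 0.031 and 0.034). Of 20 transcription factors of the ecdysone response and of cuticle formation, 1 was higher and 5 lower. That is 30.0% called, against 23.8% of all tested genes, with a median log2 fold change of -0.54. Without mCherryRNAi replicate 1, 3 were higher and 12 lower, beside the same 22.5% and 25.0% of all tested genes. The ecdysone receptor gene EcR averaged 23568 ± 3777 normalized counts in tmodRNAi and 49909 ± 11518 in mCherryRNAi (log2 fold change -1.07, adjusted p = 0.031, limma). Eip74EF, an early ecdysone-induced gene, and Kr-h1, a juvenile hormone response gene, fell by 0.82 and by 0.70 on the log2 scale (limma adjusted p of 0.037 and 0.031). Without that library the log2 fold changes were -1.84 for Cht5, -0.86 for Cht2, -2.56 for snsl, -1.27 for EcR and -0.72 for Kr-h1, and Eip74EF also passed (limma adjusted p = 0.0021). Larval stage within the third instar was given only as about 90 h, and its part in these values was not tested.

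The genes with the most similar profile over the 6 libraries were listed for the 2 members of each family with the highest mean count. Pearson's r of log2 values is given as a description, since the libraries fall into 2 genotypes and many genes share that split. For TwdlX the 5 nearest were bw, CG7054, lectin-46Ca, CG40298 and CG12512, with r of at least 0.998, and 1809 tested genes had r over 0.9. For Osi7 the nearest gene was Twdlbeta, with r of 0.999, followed by rt, dgt2, Cpr49Ae and Pol32, and 1632 genes had r over 0.9. For TwdlT the nearest were CG18004, RanBP3, CG3407, CG31097 and CG31855, with 1041 genes over 0.9. For Osi24 they were mbo, CG13325, CG31161, CG32204 and CG3927, with 129 genes over 0.9. Among members, Osi7 had r of 0.987 with Osi14 and 0.956 with Osi9, and 0.553 with Osi24.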

How the data were processed

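The authors deposited 1 table of normalized counts, a signal that is never negative, for 3 tmodRNAi and 3 mCherryRNAi libraries. DESeq2 1.30.1 and build dm6 are named in the submitters' processing notes. The aligner, counting tool and strand setting are not given in the sources used here. In each deposited column 100% of the values above 0 were whole multiples of the smallest one (within 0.01), so read counts were recovered by dividing by it. Positions and exon lengths come from Ensembl BDGP6.54, matched by FlyBase identifier for all 49 members.

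The 10969 genes averaging 10 or more were tested with limma 3.58.1 in R 4.3.3 (trended prior, pseudocount 1), adjusted over all of them. A pseudocount understates the change of low genes. The labels call the libraries biological replicates. The members and lists were chosen with earlier results of these data known. All detected members could be named, with 3 genes per context list by adjusted p and the 5 most similar profiles for 2 members per family. The undetected Osi8, Osi16, Osi21, Osi22, Osi23, Osi11, TwdlC, TwdlD, TwdlR, TwdlZ and Tb were named after their values were seen. edgeR 4.0.16 (2417 genes called) and DESeq2 1.42.0 on recovered reads were alternatives. The fits were also run on simulated counts in which no control library stood apart. That run does not bear on how mCherryRNAi replicate 1 affects the calls. Family members can share reads where their sequences are alike, and this was not checked because no sequence was used here.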

Additional observations from a re-analysis of the deposited data

How the results depend on the processing

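Among the log2 fold changes of the detected members, over the alternatives run other than the marker scales, 1 estimate turned, that of TwdlV, which lay between -0.10 (without mCherryRNAi replicate 3) and 1.74 when 1 library was left out. The cause was not tested. Counts of calls moved more. Against 2 Osiris, 5 Tweedle and 2613 genes in all, the counts were 1, 3 and 954 in limma without the trend and 4, 8 and 4364 in DESeq2. Without the trend Osi14, TwdlX, TwdlF and TwdlT lost their call, so that the 3 Tweedle calls, TwdlE, TwdlN and the added TwdlO, were all lower. A filter at a mean of 50, which leaves Osi6, TwdlE and TwdlN untested, gave 1 Osiris and 3 Tweedle calls, and a log2 threshold of 1 gave 1084 calls in all. The replicate numbers did not pair the libraries (r between -0.06 and 0.02 for the same number), and with the replicate block 0 genes passed by limma, with 3969 at an unadjusted p under 0.05. Leaving out 1 library gave 0 to 5 Osiris, 0 to 8 Tweedle and 0 to 5203 calls in all. The settings for the RR, chitin and transcription factor lists were chosen after seeing the data. These lists had 0 to 60, 0 to 24 and 0 to 15 calls in those fits, 6, 2 and 2 without the trend, and 0 with the replicate block. edgeR's quasi-likelihood test called 13 RR genes, against 25, and the same 7 members as limma. DESeq2 called 15 chitin genes and 10 transcription factors. A detection mean of at least 1 gave 16 Osiris and 23 Tweedle genes, a mean of at least 50 gave 7 Tweedle genes, and at least 10 in each library gave 8. Median centring kept the 7 called members and moved the calls over all genes to 1027 higher and 1819 lower, against 1195 and 1418. Members with few reads, such as TwdlE, TwdlL and TwdlW, are limited by depth.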
